A study of Homo sapiens with 12 samples.

Results

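MHC class I antigen presentation was followed through 9 genes in LM3, a line derived from human MDA-MB-231 breast cancer cells for its spread to the lung. The genes were chosen by symbol: HLA-B, HLA-C and HLA-E (class I heavy chains), B2M (their shared light chain), TAP1 and TAP2 (the peptide transporter), TAPBP (tapasin), ERAP1 (a peptide-trimming enzyme) and NLRC5 (a transcriptional activator). They are 9 of the 57730 rows of the count table, and 9 of 9 passed the filter on low counts, which kept 14706 genes. PolyA RNA was sequenced in 4 groups of 3 libraries. Cells carried a short hairpin RNA that was either a control (shControl) or directed at ACSL5 (shACSL5), and each kind was also given palmitic acid, a saturated fatty acid (shControl_PA and shACSL5_PA). ACSL5 is an acyl-CoA synthetase, an enzyme that activates long-chain fatty acids, and the study concerns what it does in lung metastasis of breast tumours. All groups share the cell line, the serum-containing medium and a hairpin. The hairpin sequence, the dose, time and vehicle of the palmitic acid treatment and whether the cells are 1 clone were not stated in the labels, so a vehicle effect and that of palmitic acid cannot be told apart. Loss of ACSL5, another effect of its hairpin and a difference between the cells carrying each hairpin cannot be told apart either. The knockdown below names the comparison of shACSL5 with shControl cells. The labels do not say that replicates were separate cultures. P-values therefore measure the spread between these libraries alone, and that spread may be technical.

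Class I molecules show fragments of a cell's own proteins to CD8 T cells. The proteasome cuts proteins into peptides, the TAP1 and TAP2 proteins together carry them into the endoplasmic reticulum, ERAP1 trims them, and tapasin holds an empty heavy chain and B2M beside the transporter until a peptide binds. HLA-B and HLA-C are the polymorphic classical chains, HLA-E presents signal peptides of other class I chains to natural killer cells, and NLRC5, together with RFX, CREB and NF-Y factors, switches on class I promoters, which also respond to interferon and NF-kB.

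These promoter elements are shown for the genes whose transcripts moved together or apart below. RefSeq promoters (GRCh38.p14) were matched for 7 of the 9 genes, HLA-E and NLRC5 being without an entry. In the 250 bases before each start, both strands were searched for AANNGAAA (a pair of interferon regulatory factor half-sites, in 20.3% of 35116 promoters), the same letters with GA before them (the fuller interferon-stimulated response element, which overlaps the first, in 3.02%), the NF-kB consensus (in 9.96%), TGACGC (a CREB-type X2 element, in 7.67%) and CCAAT (the NF-Y box, in 32.0%). Each stretch reads 5′ to 3′ along the gene's strand and ends before the start, and capitals mark the letters of any match. For TAP1, TAP2 and TAPBP the interferon element alone is shown, as GENCODE 29 models that start farther upstream place those bases in an exon.
HLA-B (chr6:31357221-31357366, minus strand): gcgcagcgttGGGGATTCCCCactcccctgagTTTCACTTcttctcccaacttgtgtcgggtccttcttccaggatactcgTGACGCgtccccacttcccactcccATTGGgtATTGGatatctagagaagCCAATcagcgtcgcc
HLA-C (chr6:31272134-31272294, minus strand): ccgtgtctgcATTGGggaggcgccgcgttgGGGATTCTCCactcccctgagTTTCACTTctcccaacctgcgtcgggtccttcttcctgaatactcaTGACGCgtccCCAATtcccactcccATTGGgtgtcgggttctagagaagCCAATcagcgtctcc
B2M (chr15:44711363-44711482, plus strand): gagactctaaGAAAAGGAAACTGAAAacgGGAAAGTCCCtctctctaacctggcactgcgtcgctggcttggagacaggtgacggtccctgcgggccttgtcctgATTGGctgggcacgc
TAP1 (chr6:32853818-32853843, minus strand): gccgcTTTCGATTTCGCTTTCcccta
TAP2 (chr6:32838783-32838806, minus strand): tggggAAGCGAAAGCGAAAgctgc
TAPBP (chr6:33314079-33314103, minus strand): tggagGAAAGTGAAAGTGAAAggag
HLA-B and HLA-C carried the same elements in the same order from the NF-kB match onward: NF-kB, the half-site pair on the opposite strand, TGACGC and then CCAAT boxes. B2M, TAP1, TAP2 and TAPBP held the fuller interferon element, and the windows of HLA-B, HLA-C and ERAP1 did not. TAP2 had TGACGC but no NF-kB match, and TAP1 and TAPBP had an NF-kB match but no TGACGC. ERAP1 has 2 starts, and the window of one held an NF-kB match and a CCAAT box, that of the other overlapping half-site pairs. A match describes these letters only.

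The libraries held 16788694 to 21814751 counts. ACSL5, the targeted gene, stood at 141.5, 143.4 and 144.9 CPM in shControl and at 10.9, 10.3 and 12.5 CPM in shACSL5 (log2 -3.67, SE 0.07, edgeR quasi-likelihood adjusted p = 4.2e-21), and at 189.1, 194.1 and 189.6 against 14.9, 13.3 and 17.6 CPM with palmitate (log2 -3.65, SE 0.06, adjusted p = 3.49e-21). CPM here are counts scaled to library size with trimmed means of M values (TMM), SE is the standard error of a log2 change, and a gene is called at an adjusted p under 0.05. Markers of the cell line were mixed. VIM, listed as high in MDA-MB-231, stood at 3952 ± 78.4 CPM in shControl (SD, n = 3). Of luminal genes listed as low there, ESR1 and PGR stood at 0.294 ± 0.141 and 0.0183 ± 0.0317 CPM. GATA3 and FOXA1 were at 6.79 ± 1.11 and 7.48 ± 0.173 CPM. KRT8, KRT18 and XBP1, of the same list, were not low, at 298.8 ± 10.3, 222.2 ± 2.21 and 152 ± 4.72 CPM. Markers of antigen-presenting cells were nearly absent. Of 12 class II genes 8 were at 0 in every library and their summed level was 0.109 to 0.818 CPM in all groups. Of 14 leukocyte markers 5 were at 0, and their sum ranged over 0.631 to 1.15 CPM (shControl), 1.69 to 1.79 CPM (shACSL5), 0.506 to 1.36 CPM (shControl_PA) and 1.24 to 1.77 CPM (shACSL5_PA). Endothelial markers (5 genes) summed to 3.79 to 5.87, 1.74 to 2.00, 2.13 to 3.04 and 1.47 to 2.15 CPM in the same order, and of the 2 tested, 2 were lower with the knockdown without palmitate and 0 called elsewhere. PTPRC, which marks leukocytes, was at 0 in shControl and shControl_PA and at 0.215 ± 0.192 CPM in shACSL5. Its level in shACSL5_PA was 0.169 ± 0.0723 CPM, it was not tested, and no library held more than 7 of its counts. CD8A, the 1 leukocyte marker tested, was not called with the knockdown without palmitate (log2 0.50, SE 0.47, edgeR quasi-likelihood adjusted p = 0.364). Without palmitate both sums moved with the knockdown, and their part in the results below was not tested. The 6 genes high in MDA-MB-231 summed to 5603 to 5807, 4280 to 4394, 4986 to 5145 and 4017 to 4223 CPM in the same order. In the 5 comparisons (the knockdown without and then under palmitate, palmitate in control cells and then in the knockdown, and the interaction) the number lower was 3, 5, 5, 3 and 2 and the number higher 0, 1, 0, 0 and 3. The 8 luminal genes, which include the keratins KRT8 and KRT18, summed to 677.9 to 695.5, 534.3 to 567.7, 641.6 to 651.2 and 547.0 to 593.2 CPM. Of the 5 luminal genes tested, 2, 2, 1, 0 and 1 were lower and 1, 0, 1, 1 and 1 higher.

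The machinery was present in every group, at very unequal levels. Levels per kilobase of the principal transcript allow a rough comparison of genes. The length over all exons can differ (6079 against 1705 bases for B2M), and the TAP2 row was given the length of TAP2's own transcript. The order below holds for these lengths only, and overlap of libraries does not cover that choice. B2M led in shControl at 206.4 ± 7.56 CPM per kb (SD, n = 3). HLA-E followed at 51.3 ± 1.13, the TAP2 row at 29.1 ± 0.576, TAPBP at 27.7 ± 0.592, HLA-B at 16.9 ± 2.34, HLA-C at 16.3 ± 1.37, TAP1 at 14.2 ± 0.530, ERAP1 at 11.0 ± 0.363 and NLRC5 at 1.88 ± 0.118 CPM per kb. Of neighbours in that order, HLA-B and HLA-C overlapped in their libraries and the others did not. In shACSL5 the order changed. TAPBP, at 51.4 ± 1.52 CPM per kb, overlapped HLA-E at 50.6 ± 2.14, and HLA-C, at 8.10 ± 0.747, stood next to ERAP1 at 8.15 ± 0.510 and above only NLRC5 at 2.62 ± 0.203.

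Some of these rows are less certain than others. HLA-B (GENCODE 29 on GRCh38, chromosome 6, 31269491 to 31357188, minus strand) has a gene model that runs across HLA-C (31268749 to 31272130), 18.9% of its exon bases overlap other genes, mainly a pseudogene, and 17.8% of its 50-base sequences occur in other genes, against 5.70% for HLA-C and 4.87% for HLA-E (chromosome 6, 30489467 to 30494205, plus strand). HLA reads that differ from the reference allele could be lost or split, so HLA levels are uncertain. The row named TAP2 carries an identifier that GENCODE 29 gives to a TAP2 and HLA-DOB read-through locus (chromosome 6, 32813767 to 32838822, minus strand), with 98.5% of its exon bases in those 2 genes, while HLA-DOB's own row stood at 0.0541 ± 0.0549 CPM in shControl. It is called the TAP2 row here (TAP2 itself spans 32821833 to 32838780). TAP1 (chromosome 6, 32845209 to 32853978, minus strand) shares 9.49% of its exon bases with PSMB8-AS1 on the other strand, and ERAP1 (chromosome 5, 96760810 to 96808100, minus strand) 6.94% with CAST and an antisense gene. No source used here gives the strand setting of the counting, so reads of these partners cannot be told apart. B2M (chromosome 15, 44711487 to 44718877, plus strand), NLRC5 (chromosome 16, 56989485 to 57083531, plus strand) and TAPBP (chromosome 6, 33299694 to 33314387, minus strand) have no exon overlap.

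**Figure D1:**
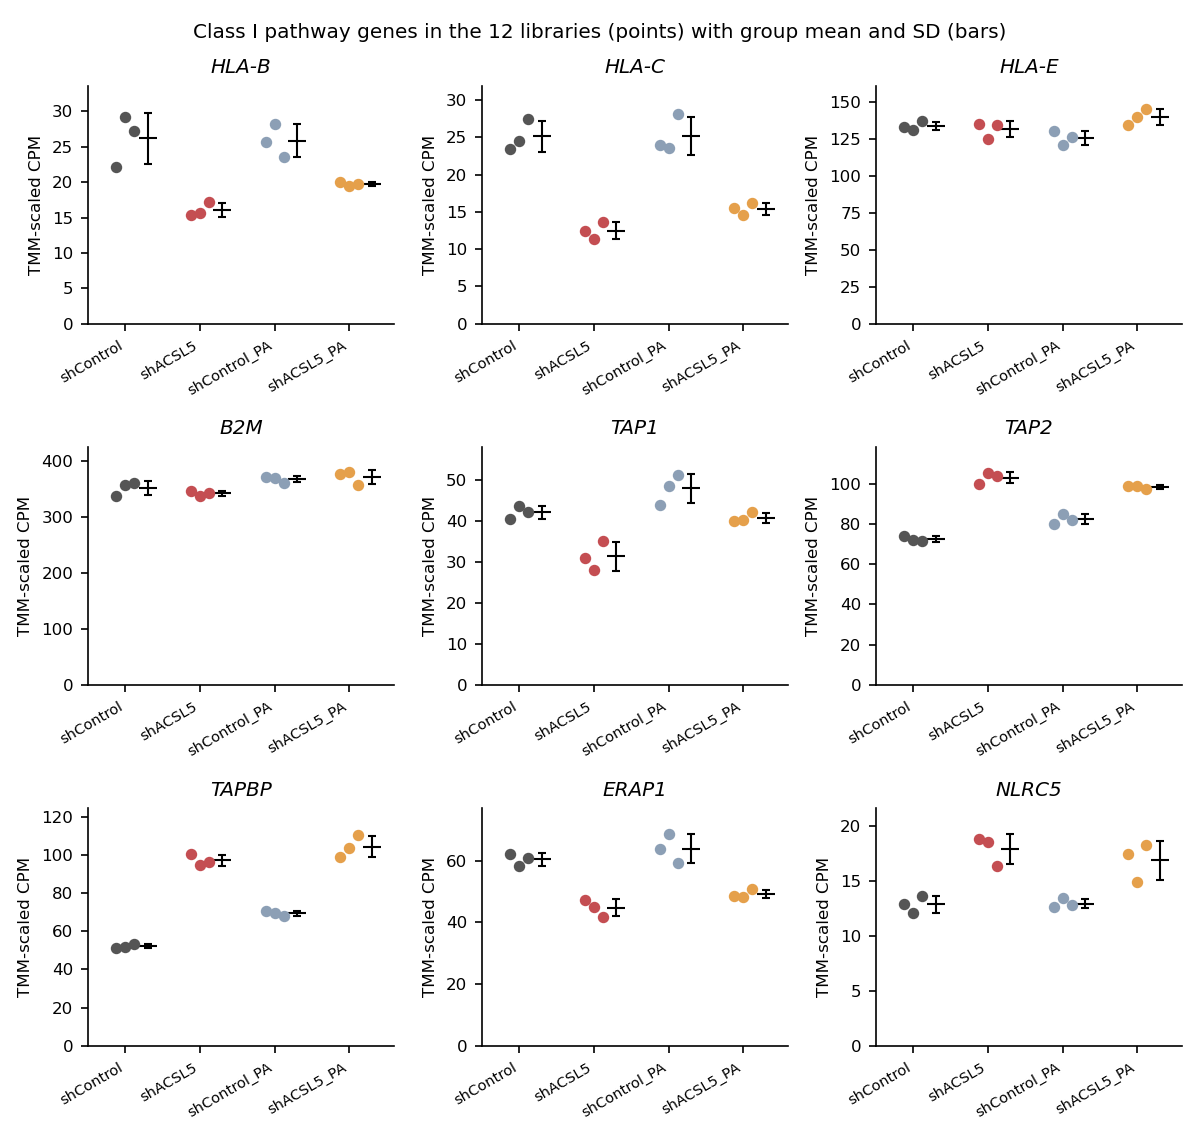
TMM-scaled CPM (linear axes from 0) of the 9 class I genes in the 12 libraries (points, in order of replicate number), with group mean and SD (bars). HLA-B, HLA-C, TAP1 and ERAP1 are lower in shACSL5 than in shControl, TAPBP, the TAP2 row and NLRC5 are higher, and B2M and HLA-E overlap.

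The knockdown without palmitate changed genes of the pathway in both directions. The classical heavy chains HLA-B and HLA-C, the transporter subunit TAP1 and the trimming enzyme ERAP1 fell, while TAPBP, the TAP2 row and NLRC5 rose, and B2M and HLA-E did not pass the test. Thus 4 of 9 were lower and 3 of 9 higher, where 62.3% of all genes tested were called (32.6% lower and 29.7% higher) and the libraries of the groups did not overlap in 66.1%. The median over the 9 was -0.04, against -0.02 over all genes. The counts of class I genes called, lower and higher were therefore near the background, and genes at large divided in this way too. What the values describe is which of the 9 genes moved in which direction. In bulk RNA, fewer expressing cells and less RNA per cell cannot be told apart.

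HLA-C had the largest change of the 9. Its level was 23.4, 24.4 and 27.5 CPM in shControl and 12.4, 11.3 and 13.6 CPM in shACSL5. No knockdown library came near a control library, and the fitted level fell by 50.4% (log2 -1.01, SE 0.10, adjusted p = 3.4e-09), a distance from 0 that 11.3% of all tested genes reached. HLA-B stood at 22.2, 29.2 and 27.3 CPM in shControl and at 15.4, 15.6 and 17.2 CPM in shACSL5. The control libraries scattered more than those of HLA-C, but the groups did not overlap (log2 -0.71, SE 0.10, adjusted p = 8.87e-07). HLA-E, the non-classical chain, stood at 133.0, 130.9 and 136.7 CPM in shControl and 134.8, 125.1 and 134.6 CPM in shACSL5. These libraries were interleaved, with a log2 change of -0.02 (SE 0.04, adjusted p = 0.689). B2M, without which a heavy chain does not reach the cell surface, was at 337.3, 357.2 and 361.4 against 346.2, 337.0 and 343.0 CPM, again interleaved (log2 -0.04, SE 0.03, adjusted p = 0.282).

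Of the transporter and its partners, TAP1 stood at 40.5, 43.6 and 42.1 CPM in shControl and at 30.8, 27.9 and 35.1 CPM in shACSL5. All 3 knockdown libraries were below all controls (log2 -0.43, SE 0.07, adjusted p = 2.89e-05). The TAP2 row went the other way, from 74.3, 72.3 and 71.6 to 100.1, 105.4 and 104.1 CPM (log2 0.50, SE 0.04, adjusted p = 4.13e-10). Within each library there were 1.66 to 1.84 reads of the TAP2 row for each of TAP1 in shControl and 2.97 to 3.78 in shACSL5, a ratio that needs no scaling of libraries (means 1.73 ± 0.0929 and 3.33 ± 0.412, SD, n = 3). TAPBP, whose product bridges the transporter and the heavy chain, was at 51.4, 51.8 and 53.5 CPM in shControl and 100.4, 94.9 and 96.0 CPM in shACSL5. It had the largest rise of the 9, 86.0% by the fit (log2 0.89, SE 0.05, adjusted p = 2.3e-13).

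ERAP1, which shortens peptides to the length that class I binds, fell from 62.1, 58.2 and 61.0 to 47.3, 45.2 and 41.8 CPM (log2 -0.43, SE 0.06, adjusted p = 1.36e-06). NLRC5 stood at 12.9, 12.0 and 13.6 CPM in shControl and 18.8, 18.5 and 16.3 CPM in shACSL5. The activator thus rose (log2 0.48, SE 0.10, adjusted p = 0.000178) in the same libraries in which HLA-B and HLA-C fell. NLRC5 rests on 219 to 411 counts per library, HLA-B on 264 to 531, HLA-C on 191 to 522 and B2M on 5691 to 7698. HLA-B, HLA-C and NLRC5 have the widest errors. A 2-sided exact permutation test of 3 against 3 libraries cannot go below p = 0.1, which each of the 7 called genes reached.

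**Figure D2:**
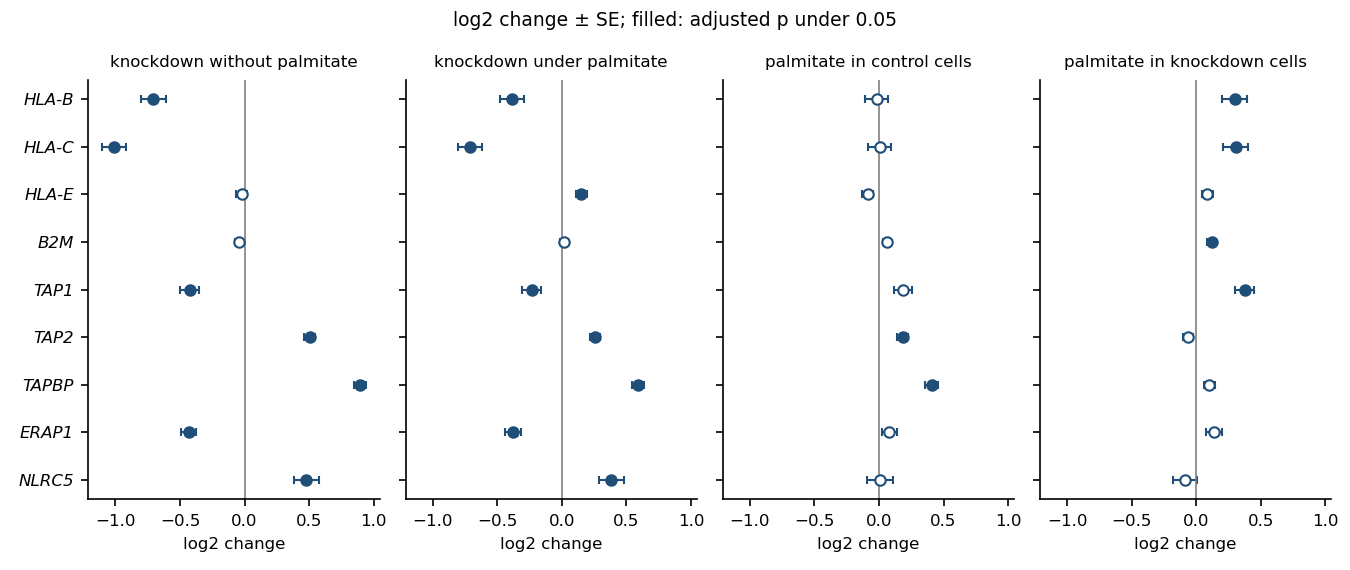
Log2 change (x axis) with its SE (bars) of the 9 class I genes in the 4 pairwise comparisons, filled where the adjusted p is under 0.05. HLA-C (-1.01) and TAPBP (0.89) lie at the 2 ends without palmitate, and the palmitate panels hold no called fall.

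Under palmitate the same comparison of knockdown with control cells gave 4 of 9 genes lower and 4 of 9 higher, where 50.5% of all genes tested were called (26.1% lower and 24.4% higher) and groups did not overlap in 56.9%. The median over the 9 was 0.02, against -0.0029 over all genes. HLA-C was at 23.9, 23.6 and 28.1 CPM in shControl_PA and 15.5, 14.6 and 16.1 CPM in shACSL5_PA. These groups were still apart, by -0.71 (SE 0.09, adjusted p = 1.04e-06). HLA-B stood at 25.7, 28.3 and 23.6 against 20.04, 19.5 and 19.8 CPM (log2 -0.39, SE 0.09, adjusted p = 0.00127). Its 3 knockdown libraries lay closely together below the controls.

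TAP1 stood at 43.9, 48.5 and 51.2 CPM in shControl_PA and at 39.8, 40.1 and 42.2 CPM in shACSL5_PA (log2 -0.23, SE 0.07, adjusted p = 0.00843). The call was lost without shControl_PA replicate 3, the highest of these libraries (log2 -0.18, adjusted p = 0.0586, with 0.0586 the highest over its alternatives). ERAP1 fell from 63.8, 68.8 and 59.3 to 48.7, 48.2 and 50.8 CPM (log2 -0.38, SE 0.06, adjusted p = 1.19e-05). TAPBP rose from 70.6, 69.5 and 67.9 to 99.1, 103.8 and 110.3 CPM (log2 0.59, SE 0.05, adjusted p = 4.2e-10). For these trimming and loading genes the libraries did not overlap. The TAP2 row rose from 80.3, 85.3 and 82.0 to 99.2, 99.2 and 97.6 CPM (log2 0.26, SE 0.04, adjusted p = 1.71e-05). NLRC5 rose from 12.6, 13.4 and 12.8 to 17.4, 14.9 and 18.2 CPM (log2 0.38, SE 0.10, adjusted p = 0.00226).

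HLA-E was the 1 gene called here and not without palmitate. Its level was 130.2, 120.9 and 125.9 CPM in shControl_PA and 134.3, 139.6 and 144.8 CPM in shACSL5_PA (log2 0.15, SE 0.04, adjusted p = 0.00464). B2M stayed interleaved, at 371.2, 370.4 and 361.3 against 377.1, 380.3 and 357.5 CPM (log2 0.02, SE 0.03, adjusted p = 0.714). In all, 7 of 9 class I genes were called in the same direction in both knockdown comparisons, as were 43.8% of all genes. Each of those 7 had a smaller change under palmitate, as did 79.7% of the 6440 genes called in both.

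**Figure D3:**
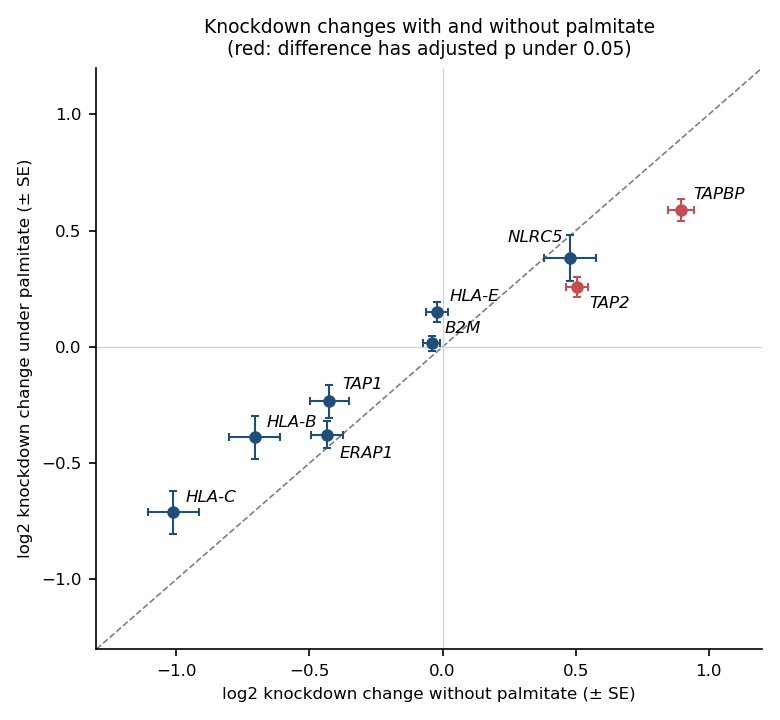
Log2 knockdown change without palmitate (x axis) and under palmitate (y axis) with SE bars, 1 point per class I gene; the dashed line marks equal changes and red points have an interaction with adjusted p under 0.05. HLA-C, HLA-B, TAP1 and ERAP1 lie lower left, NLRC5, the TAP2 row and TAPBP upper right, all nearer to 0 on the y axis than on the x axis.

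Palmitate in control cells, the response with ACSL5 present, raised 2 of 9 genes and lowered 0, where 28.7% of all genes were called (15.1% higher and 13.5% lower) and groups did not overlap in 41.9%. The median over the 9 was 0.06, against -0.0026 over all genes. TAPBP rose from 52.2 ± 1.12 to 69.3 ± 1.38 CPM (log2 0.41, SE 0.05, adjusted p = 1.63e-06) and the TAP2 row from 72.7 ± 1.44 to 82.5 ± 2.53 CPM (log2 0.18, SE 0.04, adjusted p = 0.00243). For both, every treated library lay above every untreated one. The heavy chains HLA-B (log2 -0.02, SE 0.09, adjusted p = 0.904) and HLA-C (log2 0.01, SE 0.09, adjusted p = 0.976) and the activator NLRC5 (log2 0.01, SE 0.10, adjusted p = 0.967) gave values close to 0, whose sign turned under other scalings or with 1 library left out. HLA-E stood at -0.09 (SE 0.04, adjusted p = 0.133), B2M at 0.06 (SE 0.03, adjusted p = 0.161) and ERAP1 at 0.08 (SE 0.06, adjusted p = 0.328). TAP1 was near the threshold, at 42.1 ± 1.57 against 47.9 ± 3.66 CPM (log2 0.19, SE 0.07, adjusted p = 0.0551, and 0.0239 to 0.226 over its alternatives).

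Palmitate in knockdown cells raised 4 of 9 genes and lowered 0. Of all genes, 21.9% were called there (12.1% higher and 9.78% lower), and groups did not overlap in 35.5%. The median over the 9 was 0.12, against 0.01 over all genes. TAP1 rose from 31.3 ± 3.64 to 40.7 ± 1.30 CPM (log2 0.38, SE 0.07, adjusted p = 0.000714), its 3 treated libraries all above the untreated ones. B2M rose from 342.1 ± 4.64 to 371.7 ± 12.4 CPM (log2 0.12, SE 0.03, adjusted p = 0.0102), a call lost without shACSL5_PA replicate 2 (log2 0.10, adjusted p = 0.0583). HLA-B rose from 16.1 ± 0.977 to 19.8 ± 0.289 CPM (log2 0.30, SE 0.10, adjusted p = 0.0300) and HLA-C from 12.4 ± 1.15 to 15.4 ± 0.791 CPM (log2 0.30, SE 0.10, adjusted p = 0.0304). The groups of each heavy chain did not overlap, and both stayed below the control cells with or without palmitate.

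The calls of the heavy chains are narrow ones. That of HLA-B was lost without shACSL5 replicate 1 (log2 0.27, adjusted p = 0.112) or 2 (0.28, 0.0818) and without shACSL5_PA replicate 1 (0.29, 0.0769), 2 (0.31, 0.0600) or 3 (0.30, 0.0594). That of HLA-C was lost without shACSL5 replicate 1 (log2 0.30, adjusted p = 0.0799) or 2 (0.25, 0.122) and without shACSL5_PA replicate 1 (0.30, 0.0733) or 3 (0.27, 0.0909). The direction was kept throughout. TAPBP, at 97.1 ± 2.86 and 104.4 ± 5.67 CPM, gave 0.10 (SE 0.04, adjusted p = 0.110, but 0.0494 without shACSL5_PA replicate 1). ERAP1 gave 0.14 (SE 0.06, adjusted p = 0.117), HLA-E 0.08 (SE 0.04, adjusted p = 0.163), the TAP2 row -0.06 (SE 0.04, adjusted p = 0.288) and NLRC5 -0.09 (SE 0.09, adjusted p = 0.561).

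Whether palmitate acted differently in the 2 kinds of cells was tested by the interaction, the log2 response to palmitate with the knockdown less the response without it. It was called for 2 of 9 genes, both lower, where 14.5% of all genes were called (7.39% lower and 7.15% higher); the median over the 9 was 0.06, against 0.01 over all genes. TAPBP responded less in knockdown cells, by -0.30 (SE 0.07, adjusted p = 0.0033), and the TAP2 row by -0.25 (SE 0.06, adjusted p = 0.00631). Both genes were already higher in shACSL5 without palmitate. The heavy chains pointed the other way without passing the test: HLA-B at 0.32 (SE 0.13, adjusted p = 0.118, but 0.0255 without shControl replicate 1) and HLA-C at 0.30 (SE 0.13, adjusted p = 0.145). HLA-E stood at 0.17 (SE 0.06, adjusted p = 0.0566, and 0.0247 with library sizes alone), TAP1 at 0.19 (SE 0.10, adjusted p = 0.238) and NLRC5 at -0.10 (SE 0.14, adjusted p = 0.711). B2M gave 0.06 (SE 0.05, adjusted p = 0.457) and ERAP1 0.05 (SE 0.08, adjusted p = 0.730). For these genes a rise in knockdown cells that differs from that in control cells was not shown.

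**Figure D4:**
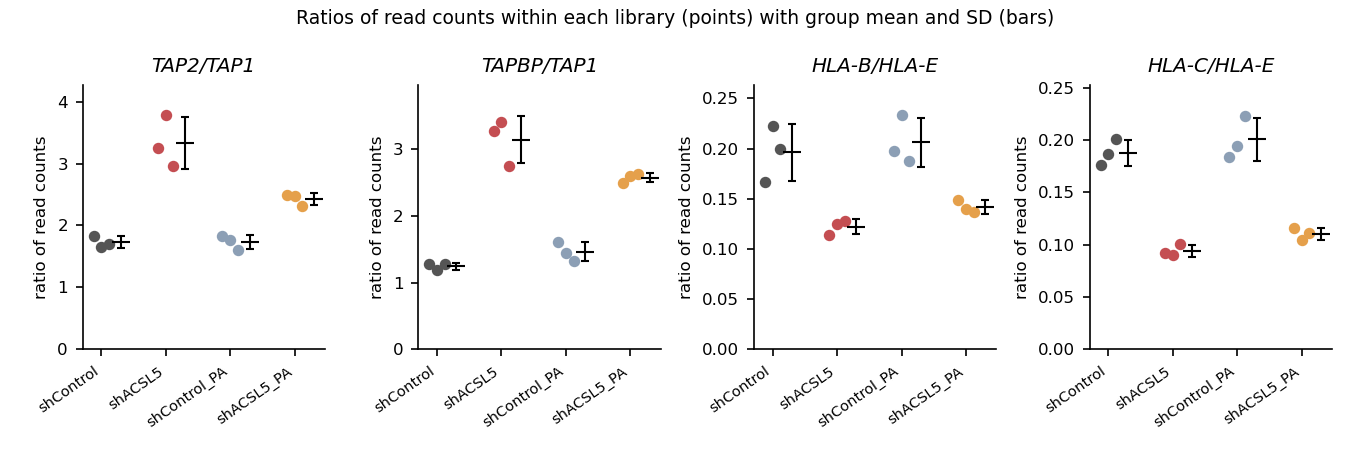
Ratio of read counts of 2 class I genes within each library (points, linear axes from 0), with group mean and SD (bars). TAP2 row to TAP1 and TAPBP to TAP1 are highest in shACSL5 (3.33 and 3.13) and between the others in shACSL5_PA (2.43 and 2.56), and HLA-B and HLA-C to HLA-E are lowest in shACSL5.

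Ratios within a library need no scaling, but they come from the same counts as the tests and are not separate evidence. TAPBP to TAP1 was 1.24 ± 0.0493 in shControl, 3.13 ± 0.352 in shACSL5, 1.46 ± 0.142 in shControl_PA and 2.56 ± 0.0677 in shACSL5_PA (SD, n = 3). HLA-C to B2M, the share of a classical chain relative to the light chain, was 0.0713 ± 0.00414, 0.0364 ± 0.00308, 0.0686 ± 0.00799 and 0.0415 ± 0.00343 in the same order. HLA-B to B2M was 0.0742 ± 0.00801, 0.0470 ± 0.00288, 0.0703 ± 0.00557 and 0.0532 ± 0.00208. A ratio shows unequal change of the 2 transcripts and not which of them moved.

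The other genes of the pathway were counted from lists, for the knockdown without palmitate, the knockdown under palmitate, palmitate in control cells, palmitate in knockdown cells and the interaction, in that order. Of all genes tested, 29.7%, 24.4%, 15.1%, 12.1% and 7.15% were called higher and 32.6%, 26.1%, 13.5%, 9.78% and 7.39% lower in these, with medians of -0.02, -0.0029, -0.0026, 0.01 and 0.01. Peptides are cut by the proteasome, whose interferon-inducible subunits and activator (5 genes, all tested) had 2, 2, 1, 0 and 0 members higher and 1, 0, 0, 0 and 0 lower, with medians of 0.10, 0.05, 0.05, 0.06 and 0.03. The inducible subunits divided with the knockdown: PSMB10 rose from 9.34 ± 1.45 to 16.7 ± 0.746 CPM (log2 0.84, SE 0.12) and PSMB8 by 0.16 (SE 0.07), whereas PSMB9 fell by 0.44 (SE 0.15). Under palmitate the knockdown raised PSMB10 by 0.52 (SE 0.12) and PSMB8 by 0.25 (SE 0.07), and palmitate raised the activator subunit PSME1 in control cells by 0.16 (SE 0.05). The 3 constitutive catalytic subunits, which the inducible ones replace, had 3, 1, 2, 1 and 0 higher and 0, 0, 0, 1 and 1 lower (medians 0.22, 0.10, 0.10, 0.08 and -0.01). PSMB7 rose by 0.22 (SE 0.04) in each knockdown comparison, and PSMB5 rose by 0.28 (SE 0.03) without palmitate.

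Other peptidases that trim or destroy class I peptides (7 genes, all tested) had 3, 3, 2, 3 and 1 members higher and 4, 2, 0, 0 and 1 lower (medians -0.20, 0.00050, 0.09, 0.15 and 0.12). LNPEP, the endosomal relative of ERAP1 used in cross-presentation, fell with the knockdown by 0.54 (SE 0.05) and under palmitate by 0.43 (SE 0.05), and TPP2 by 0.54 (SE 0.06) and 0.35 (SE 0.06). LAP3 rose by 0.48 (SE 0.04) and 0.51 (SE 0.04), and THOP1, which destroys cytosolic peptides, rose by 0.61 (SE 0.05) without palmitate. Palmitate raised LNPEP in control cells by 0.19 (SE 0.05) and in knockdown cells by 0.31 (SE 0.05).

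Chaperones of heavy chain folding and peptide loading other than tapasin (5 genes, all tested) had 1, 0, 3, 2 and 0 members higher and 1, 2, 0, 0 and 1 lower (medians 0.01, -0.17, 0.22, 0.05 and -0.07). Calreticulin (CALR) rose with palmitate by 0.27 (SE 0.02) in control cells and 0.20 (SE 0.02) in knockdown cells, and PDIA3 by 0.22 (SE 0.03) and 0.21 (SE 0.03). Calnexin (CANX) rose by 0.36 (SE 0.02) in control cells and stood at 0.05 (SE 0.02, adjusted p = 0.127) in knockdown cells, an interaction of -0.31 (SE 0.03, adjusted p = 3.94e-07). UGGT1, which checks glycoprotein folding, fell with the knockdown by 0.16 (SE 0.04) and under palmitate by 0.23 (SE 0.04). Of 7 other class I or class I-like heavy chains 4 were tested, with 1, 2, 1, 1 and 0 higher and 1, 1, 1, 1 and 0 lower (medians 0.54, 0.23, -0.24, -0.16 and 0.01). HFE, an iron-regulating relative that also pairs with B2M, rose with the knockdown by 0.77 (SE 0.13) and under palmitate by 0.63 (SE 0.12).

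**Figure D5:**
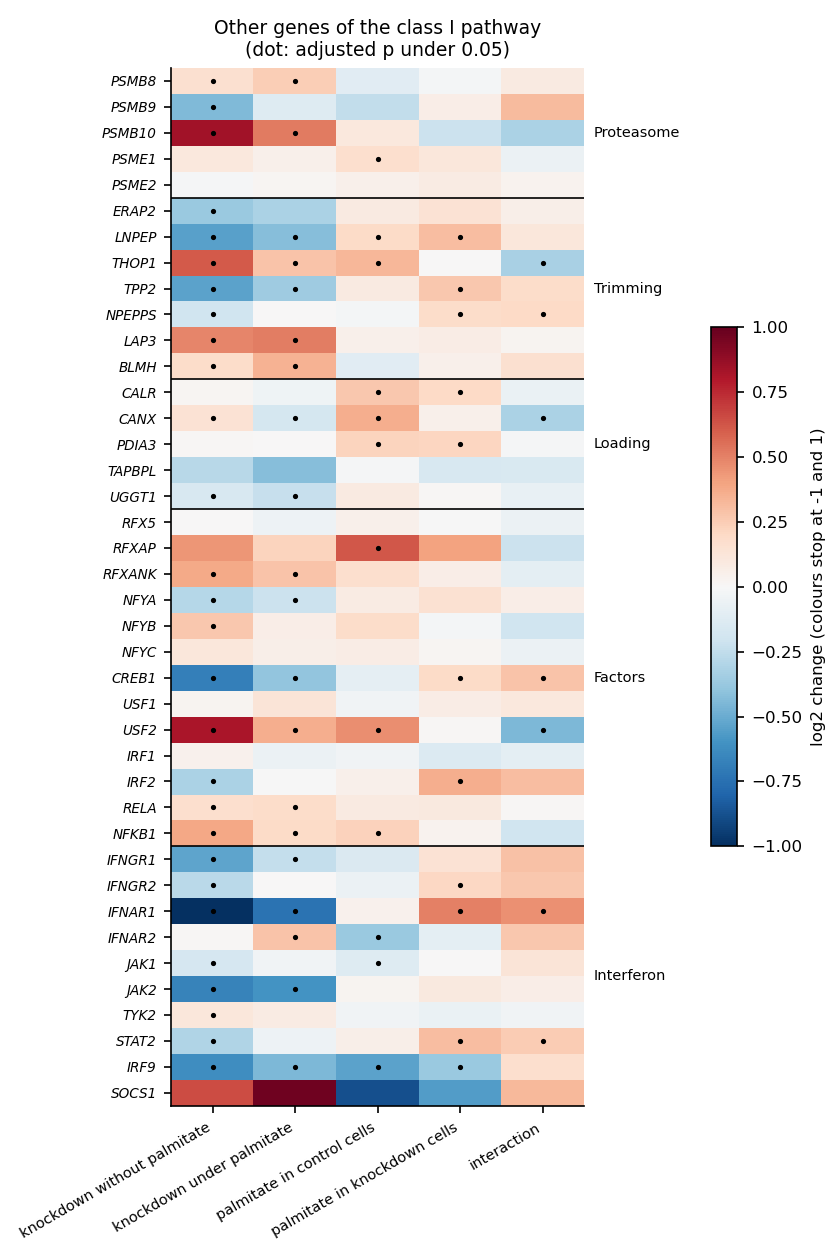
Log2 change (colour, limited to -1 and 1) of selected other genes of the class I pathway (rows, grouped by role) in the 4 pairwise comparisons and the interaction (columns); dots mark adjusted p under 0.05. Most called interferon receptor and signalling genes are blue in the first column, and proteasome, trimming and factor genes show both colours.

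Transcription factors that act at class I promoters (14 genes, all tested) had 5, 4, 3, 2 and 1 members higher and 4, 2, 1, 0 and 1 lower (medians 0.08, 0.06, 0.08, 0.05 and -0.06). CREB1, of the family that binds the X2 element, fell from 75.1 ± 7.01 to 46.6 ± 1.08 CPM (log2 -0.69, SE 0.06, adjusted p = 3.37e-09) and by 0.40 (SE 0.06) under palmitate. USF2 rose from 44.7 ± 1.08 to 78.7 ± 1.56 CPM (log2 0.81, SE 0.05, adjusted p = 8.05e-12) and by 0.36 (SE 0.05) under palmitate. NFYA, a subunit of the CCAAT-binding factor, fell by 0.28 (SE 0.06) and 0.21 (SE 0.06), and the NF-kB subunit gene NFKB1 rose by 0.39 (SE 0.05) without palmitate. IRF1, named here after its values were seen because it binds the interferon element of class I promoters, stood at 0.05 (SE 0.11, adjusted p = 0.725) and under palmitate at -0.06 (SE 0.11, adjusted p = 0.697).

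Interferon receptors and signalling genes (12, all tested, some of them also counted among the factors) had 1, 1, 0, 3 and 2 members higher and 8, 4, 4, 1 and 0 lower. Their medians were -0.22, -0.04, -0.09, 0.01 and 0.21. With the knockdown 8 of 12 fell, where 32.6% of all genes did. IFNAR1, a chain of the type I interferon receptor, fell from 71.0 ± 0.843 to 31.0 ± 1.79 CPM (log2 -1.20, SE 0.06, adjusted p = 9.48e-14), and under palmitate by 0.74 (SE 0.06). Palmitate raised IFNAR1 in knockdown cells by 0.50 (SE 0.06) and it stood at 0.04 (SE 0.06, adjusted p = 0.621) in control cells, an interaction of 0.46 (SE 0.08, adjusted p = 0.000772). IRF9 fell by 0.62 (SE 0.09) with the knockdown, JAK2 by 0.67 (SE 0.11) and the interferon-gamma receptor gene IFNGR1 by 0.53 (SE 0.08). STAT2 rose with palmitate in knockdown cells by 0.31 (SE 0.06). Of the 6 interferon genes listed, 5 were at 0 in every library and none passed the low-count filter.

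Interferon-stimulated genes outside the pathway (33 in the table, 27 tested) had 5, 2, 2, 1 and 4 members higher and 15, 17, 7, 8 and 4 lower (medians -0.34, -0.21, -0.09, -0.17 and 0.0087). Thus 15 and 17 of 27 fell in the knockdown comparisons, where 32.6% and 26.1% of all genes did, and 5 and 2 rose, where 29.7% and 24.4% did. GBP2 fell with the knockdown from 92.5 ± 3.42 to 31.7 ± 0.971 CPM (log2 -1.55, SE 0.05). DDX60 and SAMD9L fell by 2.19 (SE 0.12) and 1.36 (SE 0.09) without palmitate. IFIT2 and OAS1, named after their values were seen, rose there by 0.59 (SE 0.06) and 1.40 (SE 0.23). The interaction went both ways: it was 0.60 (SE 0.07, adjusted p = 8.24e-06) for GBP2, -0.75 (SE 0.09, adjusted p = 4.19e-06) for IFIT2 and -0.53 (SE 0.06, adjusted p = 4.6e-06) for IFIT1. NF-kB subunits and feedback genes (6, all tested) had 2, 0, 5, 4 and 0 members higher and 1, 4, 0, 0 and 2 lower (medians 0.17, -0.36, 1.04, 0.35 and -0.25). Palmitate thus raised 5 of 6 in control cells, where 15.1% of all genes rose, among them the inhibitor NFKBIA by 1.02 (SE 0.06) and TNFAIP3 by 1.42 (SE 0.15). In knockdown cells NFKBIA rose less, by 0.21 (SE 0.06). TNFAIP3 did not rise there, at 8.584 ± 1.074 CPM in shACSL5 and 8.025 ± 1.094 CPM in shACSL5_PA. The interaction was -0.80 (SE 0.08, adjusted p = 6.45e-07) for NFKBIA and -1.53 (SE 0.21, adjusted p = 3e-05) for TNFAIP3.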

How the data were processed

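The deposited table holds the authors' raw read counts for 12 polyA RNA libraries, as whole numbers without normalization. Per the submitters' processing notes, reads went through fastp 0.22.0, HISAT2 2.1.0 and featureCounts with the GRCh38 build. No source used here gives the featureCounts version, the annotation release, the strand setting or the treatment of reads with several matches. Groups and replicate numbers came from the sample titles.

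Genes were kept with edgeR's filterByExpr (14706 of 57730). With TMM scaling, all 12 libraries entered 1 fit of edgeR 4.0.16 (R 4.3.3), whose quasi-likelihood test gives every adjusted p not credited to an alternative. P-values were adjusted by Benjamini-Hochberg over all genes tested, and the common dispersion was 0.00203. The SE is the absolute log2 change divided by the square root of the F statistic and is approximate. Levels per kilobase used the principal transcript of GENCODE 29. Replicates of a group differed by more than counting noise. Alternatives were other scalings, DESeq2 1.42.0, no low-count filter, fewer groups in the fit, a replicate block and each library left out.

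The members and lists were chosen with earlier results of these data known. The naming rule took all 9 members, and up to 4 called genes with the smallest p of each list in a comparison. It also took the 3 genes most correlated with each of 5 members (log2 CPM with a prior count of 2, mean CPM of at least 5). Some list members are counted but not reported by gene.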

Additional observations from a re-analysis of the deposited data

Results flagged for a closer look

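The palmitate response of TAPBP differed between knockdown and control cells by the test of the difference itself, at -0.30 on the log2 scale (edgeR quasi-likelihood adjusted p = 0.0033). TAPBP rose with palmitate by 0.41 in control cells, higher in 3 of 3 treated libraries, and stood at 0.10 in knockdown cells. The TAP2 row differed in the same way, at -0.25 (adjusted p = 0.00631), with 0.18 in control cells and -0.06 in knockdown cells. Of all genes tested, 14.5% passed this test.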

How the results depend on the processing

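Each pairwise comparison was recomputed under 19 alternatives and the interaction under 18. Without palmitate the knockdown called 7 members under every alternative run. The count was 8 for the knockdown under palmitate (7 to 8 with 1 library left out), 2 for palmitate in control cells (2 to 3), 4 for palmitate in knockdown cells (2 to 4) and 2 for the interaction (2 to 3). Of called log2 changes 424 recomputed values kept direction and call and 11 lost the call, each with 1 library left out; of uncalled ones 382 stayed so, 14 gained a call and 15 changed sign.

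Sign changes were these, all uncalled. HLA-E with the knockdown gave 0.000761 with only the groups compared and 0.0126 without shACSL5 replicate 2 (-0.0385 to 0.0126 with 1 library left out), and B2M with the knockdown under palmitate gave -0.0021 without shACSL5_PA replicate 2 (-0.0021 to 0.0426). With palmitate in control cells, HLA-B gave 0.0649 and 0.0116 without shControl replicates 2 and 3 and 0.0443 without shControl_PA replicate 3 (-0.124 to 0.0649). HLA-C gave -0.0126 with upper-quartile factors, -0.0429 with library sizes alone, -0.0413 and -0.0135 without shControl replicates 1 and 2 and -0.0796 without shControl_PA replicate 3 (-0.0796 to 0.0768). NLRC5 gave -0.0103 and -0.0402 with those scalings, -0.0364 without shControl replicate 2 and -0.0161 without shControl_PA replicate 2 (-0.0364 to 0.0549). The cause was not tested.

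TAP1 with palmitate in control cells was called in 7 alternatives (adjusted p = 0.0239 to 0.0432), and HLA-E with library sizes alone (log2 -0.14, adjusted p = 0.0172). Library sizes alone moved the share of all calls that were higher from 52.8% to 35.9% for palmitate in control cells and from 49.2% to 59.9% for the interaction, and upper-quartile factors from 55.3% to 45.0% for palmitate in knockdown cells. Same-numbered libraries had correlations of -0.042 to 0.080 between their deviations from the group means. Such values cannot tell whether same-numbered libraries were handled together, and the labels do not say. With the replicate block 7, 8, 3, 4 and 3 members were called, and 9197, 7489, 4302, 3363 and 2261 genes in all; the block added TAP1 with palmitate in control cells (adjusted p = 0.0370) and the HLA-E interaction (adjusted p = 0.0380). Depth limits NLRC5, HLA-B and HLA-C, with the fewest counts.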

Other observations

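Ligands that natural killer and T cells read beside class I (12 genes, 11 tested) had 6, 5, 1, 3 and 2 members higher and 2, 1, 0, 0 and 0 lower in the knockdown without palmitate, the knockdown under palmitate, palmitate in control cells, palmitate in knockdown cells and the interaction (medians 0.26, 0.20, 0.01, 0.09 and -0.07). Of all genes, 29.7% were higher and 32.6% lower without palmitate, and 24.4% and 26.1% under it. MICA, a stress-induced ligand of the activating receptor NKG2D, rose with the knockdown from 31.6 ± 1.56 to 44.4 ± 1.95 CPM (SD, n = 3, log2 0.49, SE 0.07) and by 0.41 (SE 0.06) under palmitate. MICB, of the same family, rose by 0.48 (SE 0.06) and 0.65 (SE 0.06), and PVR, which binds receptors on both kinds of cells, by 0.44 (SE 0.04) and 0.36 (SE 0.04). ULBP3, another NKG2D ligand, rose by 0.78 (SE 0.15) under palmitate and, named there after its value was seen, by 0.96 (SE 0.16) without it. CD276, an inhibitory B7 family member, fell by 0.79 (SE 0.07) without palmitate.

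Genes reported to lower class I at the surface or at its promoters (9, all tested) had 2, 3, 2, 0 and 0 members higher and 1, 1, 2, 1 and 0 lower (medians 0.09, 0.02, 0.0061, -0.04 and 0.06). The ubiquitin ligase gene MARCHF4 rose with the knockdown from 24.2 ± 1.43 to 66.3 ± 4.51 CPM (log2 1.46, SE 0.07) and by 1.52 (SE 0.07) under palmitate. Its relative MARCHF9 fell by 1.28 (SE 0.14) and 1.09 (SE 0.14), and TMEM127 rose by 0.28 (SE 0.05) without palmitate.

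Over the 12 libraries, which fall into 4 groups, the genes whose log2 CPM were most correlated with a member among 10929 compared were, with Pearson's r as a description, MPP2 (0.968), BPGM (0.966) and CYFIP2 (0.960) for HLA-B. For TAP1 they were FDPS (0.976), CD63 (0.950) and PPIP5K1 (0.949). For ERAP1 they were TRAK2, KIDINS220 and RBM26 (0.978 to 0.979), for NLRC5 WDR18 (0.965), SH2B1 (0.963) and HADH (0.960), and for B2M NPDC1 (0.922), LAMTOR5 (0.875) and HDAC10 (0.870).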
